A study of Mus musculus with 12 samples.

Results

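The 10 genes described here carry, restrain or answer IL-6 and STAT3 signalling in mouse liver. They were taken by gene name from a table of read counts for 35275 genes, and all 10 were found there. They comprise the receptor chain genes Il6ra, Il6st, Osmr and Lifr, the transcription factor genes Stat3 and Cebpb, the feedback gene Socs3, and Lbp, Steap4 and Il1rn, which are genes induced during inflammation. All 10 passed the filter on low counts, as did 12378 genes of the table.

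The tested livers came from male C57Bl/6J mice that ate a diet containing 0.5% norUDCA for 1 week at 13 weeks of age, and the control livers from mice of the same strain, sex and age on chow (6 libraries each). NorUDCA is norursodeoxycholic acid, a homologue of the bile acid ursodeoxycholic acid whose side chain lacks a methylene group. The norUDCA libraries carry the replicate numbers 9, 10, 11, 12, 13 and 20, and the chow libraries the numbers 2, 3, 7, 8, 16 and 17. Every library is tagged WT in its title, no other agent is given, and the labels do not say that each library came from a separate animal, so the p-values measure the spread between these libraries, which may be technical in part.

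IL-6 family cytokines act through receptors that share 1 chain, gp130, the product of Il6st. IL-6 first binds its own chain, the product of Il6ra, whereas oncostatin M and LIF use the products of Osmr and Lifr together with gp130. Janus kinases bound to gp130 then phosphorylate STAT3, which enters the nucleus and, in hepatocytes, induces the acute-phase proteins of blood plasma. STAT3 also induces SOCS3, which binds gp130 and shuts the signal off, while C/EBP-beta, first described as a nuclear factor of IL-6 expression, works beside STAT3 on many acute-phase promoters.

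STAT3 binds a short inverted repeat, TTCNNNGAA, and the sequence upstream of each gene was searched for it because the genes are grouped here by their relation to STAT3. RefSeq promoter windows (GRCm38.p6) of 250 bases before the start site were held for 9 of the 10 genes, in 12 windows, and Lbp had none. The motif, which reads the same on both strands, was present for Socs3 and Steap4. These 2 windows are shown from 200 to 51 bases before the start, 5′ to 3′ on the strand of the gene, with the STAT3 motif in capitals. The first lies at chr11:117969417-117969566 on the minus strand and the second at chr5:7960272-7960421 on the plus strand.
Socs3: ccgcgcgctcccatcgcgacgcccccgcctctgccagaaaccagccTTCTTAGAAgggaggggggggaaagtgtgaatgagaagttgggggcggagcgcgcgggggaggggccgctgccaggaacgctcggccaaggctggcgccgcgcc
Steap4: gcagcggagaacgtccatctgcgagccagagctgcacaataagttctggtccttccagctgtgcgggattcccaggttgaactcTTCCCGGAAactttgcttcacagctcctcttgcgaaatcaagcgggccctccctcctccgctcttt

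The Socs3 match, TTCTTAGAA, lay 154 to 146 bases before the start, and the Steap4 match, TTCCCGGAA, lay 116 to 108 bases before it. Steap4 also held the C/EBP motif TTGCNNAA, as TTGCGAAA from 87 to 80 bases before the start, and no window of another gene of the 10 held that motif on either strand. Of all 32851 windows of the same length, 7.02% held the STAT3 motif and 9.56% the C/EBP motif. A looser NF-kB motif, of fixed letters at its ends only, was found for 7 of the 9 genes, and in 45.8% of all windows. Distances are from the RefSeq start, which for Socs3 lies inside the range the deposited table gives the gene (chromosome 11, 117966079 to 117970047), and GENCODE M21 starts the protein-coding Socs3 transcript further downstream. A match describes letters only, and no binding was measured. These were also the 2 genes whose levels varied most in step with each other among the 10, at an r of 0.92, as described further on. Il6st and Osmr came next at 0.89, and neither window held the STAT3 motif. Whether motif and likeness are related was not tested.

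Total counts ran from 14065837 to 15342922 in the norUDCA libraries and from 12209706 to 13715026 in the chow libraries, without overlap. Levels are given as CPM, counts relative to a library's total times its TMM factor, a factor set on the assumption that most genes do not differ between libraries. Differences were tested with edgeR's quasi-likelihood test, and the threshold was an adjusted p under 0.05 (Benjamini-Hochberg, over all tested genes). Genes past it, termed called, numbered 1900 (15.3%), 833 of them higher under norUDCA (6.73%) and 1067 lower (8.62%). With scaling by total counts in place of TMM, 2999 genes were called, 81.2% of them higher instead of 43.8%, and the median log2 fold change of all genes was 0.15 instead of 0.00. The hepatocyte markers summed to 61941 to 75411 CPM under norUDCA and to 59482 to 79109 CPM under chow, most of it Alb, so the tissue carried the transcripts its label names.

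Of the 10 genes, 3 fell under norUDCA and none rose: Lifr, Lbp and Stat3. That is 3 of 10 lower against 8.62% of all tested genes, and 0 higher against 6.73%. The log2 fold change was below 0 for 9 of the 10, the exception being Il6ra, and the median over the 10 was -0.75, against 0.00 for all tested genes. For 1 gene, Lifr, the norUDCA and chow libraries did not overlap, as was so for 7.66% of all tested genes. Lifr, Lbp and Stat3 were called in each of the 20 alternative analyses, whereas the number called among the 10 went to 5 when norUDCA 10 or chow 16 was left out. In bulk liver RNA, fewer cells of a type and less RNA per cell cannot be told apart.

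**Figure D1:**
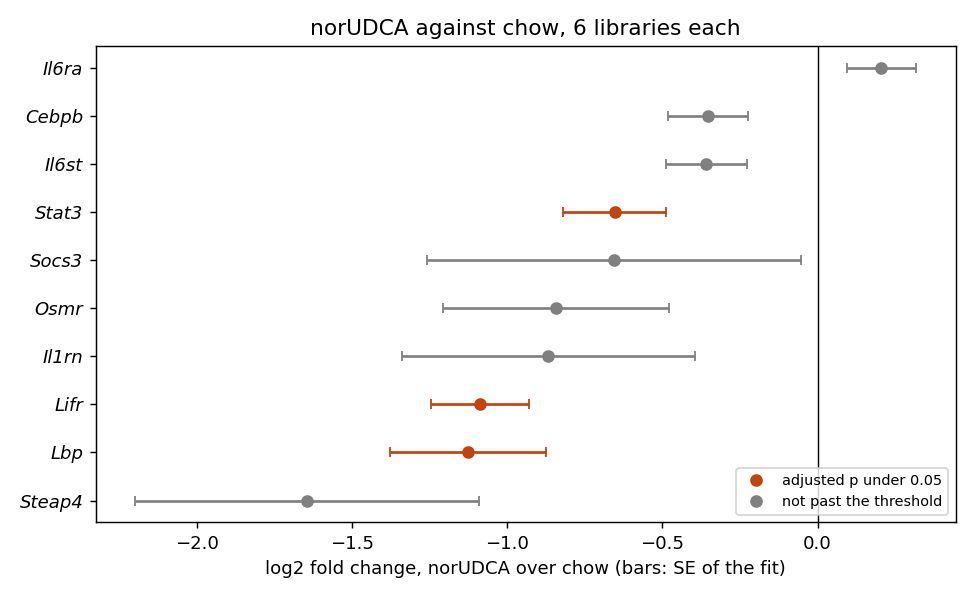
Log2 fold change of each gene, norUDCA over chow, with bars for the standard error of the edgeR fit (6 libraries per diet), sorted by size. Lifr, Stat3 and Lbp, in colour, passed the threshold at -1.09, -0.65 and -1.13, while Steap4 had the lowest estimate at -1.65 and, after Socs3, the widest error.

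Lifr, the LIF receptor chain, showed the clearest difference among the receptor genes. Its level in the norUDCA libraries had a lowest, median and highest value of 149.6, 178 and 249.6 CPM, against 278, 392 and 571 CPM in the chow libraries. Every norUDCA library lay below every chow library, norUDCA 9 being the highest norUDCA library and chow 3 the lowest chow library. Lifr was 2.13-fold lower under norUDCA (190.3 ± 35.6 against 405 ± 98.8 CPM, SD, n = 6 each; log2 fold change -1.09 ± 0.16 SE; edgeR adjusted p = 0.000413), and the estimate stayed between -1.18 and -0.94 under all 20 alternatives. The deposited table places the gene on chromosome 15 from 7129559 to 7197489.

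The genes of the shared chain gp130 and of the IL-6 binding chain did not pass the test. Il6st had 125, 139 and 151 CPM (lowest, median, highest) under norUDCA and 140.3, 163 and 252 CPM under chow. The norUDCA libraries filled a narrow band, chow 2, chow 7 and chow 8 lay above it, and chow 3, chow 16 and chow 17 lay within it. On the log2 scale norUDCA differed from chow by -0.36 ± 0.13 SE (edgeR adjusted p = 0.0817), short of the threshold, although without chow 3 it was -0.41 with an adjusted p of 0.0456.

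Il6ra had 61.3, 67.1 and 72.4 CPM under norUDCA and 38.7, 58.2 and 68.9 CPM under chow. The norUDCA values were again the tighter set, and chow 16 alone set the lower end of the chow range. The fitted log2 fold change was 0.21 ± 0.11 SE (edgeR adjusted p = 0.243). Without chow 16 it was 0.12 (adjusted p = 0.344), and with scaling by total counts it was 0.36 (adjusted p = 0.0290).

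Osmr, the oncostatin M receptor chain, was the least abundant of the 4 receptor genes. It had 2.58, 2.80 and 3.92 CPM under norUDCA and 3.08, 3.60 and 14.6 CPM under chow. A single library, chow 2, stood far above the other 11, which all lay between 2.58 and 4.52 CPM. Its log2 fold change of -0.84 ± 0.36 SE (edgeR adjusted p = 0.134) was -0.25 (adjusted p = 0.369) without chow 2.

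Levels of different genes were compared per kb of the gene length listed in the table. Under norUDCA, Il6ra averaged 20.002 ± 1.34, Lifr 19.7 ± 3.69, Il6st 15.8 ± 1.15 and Osmr 0.549 ± 0.0884 CPM per kb (SD, n = 6). Under chow, Lifr came first at 41.9 ± 10.2 CPM per kb, followed by Il6st at 20.3 ± 5.07, Il6ra at 17.3 ± 3.22 and Osmr at 0.988 ± 0.827 (SD, n = 6). Lifr and Il6ra thus lay within their spread of each other under norUDCA, whereas Lifr was the most abundant of the 4 chains in all 6 chow libraries.

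The ratio of one chain to another within a library does not depend on how libraries are scaled. Its size, and whether it exceeds 1, do depend on the listed gene lengths. The listed coordinates of Il6ra and Lifr differ from those of GENCODE M21. The ratios are given as a description, with no test, because the pairs were taken after the levels had been seen. Lifr over Il6ra per kb was 0.988 ± 0.195 under norUDCA and 2.59 ± 1.26 under chow (SD, n = 6 each), and it exceeded 1 in 2 norUDCA libraries and in all 6 chow libraries. Lifr over Il6st was 1.24 ± 0.180 under norUDCA and 2.16 ± 0.767 under chow, and the highest norUDCA library, at 1.57, just overlapped the lowest chow library, at 1.56. Il6ra over Il6st was 1.27 ± 0.109 under norUDCA and 0.873 ± 0.161 under chow, and it exceeded 1 in all 6 norUDCA libraries and in 2 chow libraries.

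**Figure D2:**
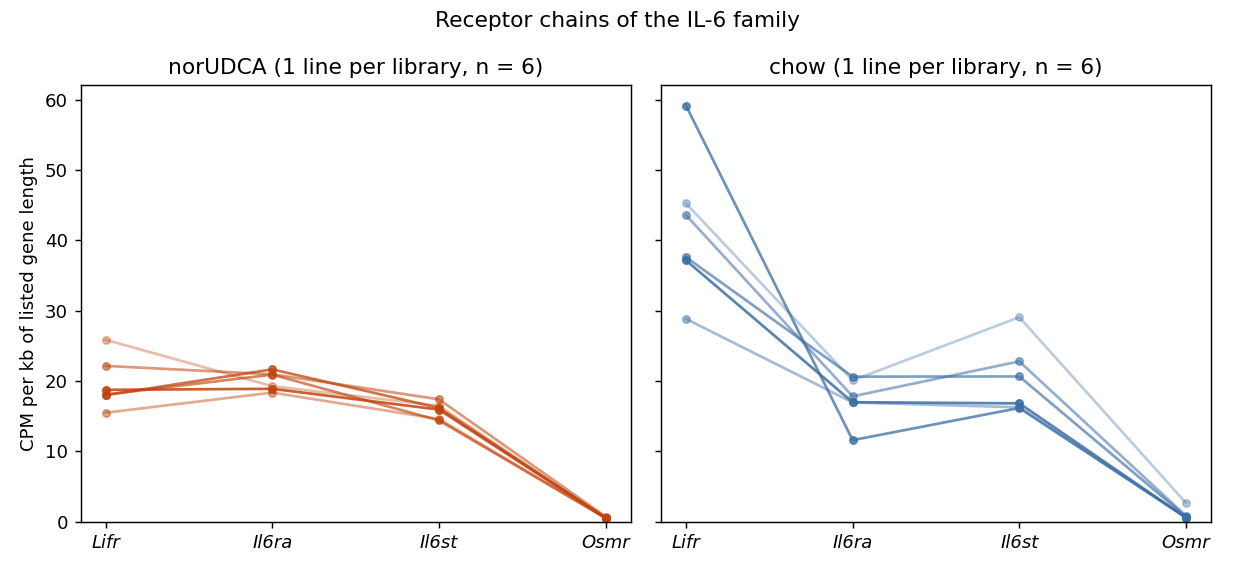
Level of the 4 receptor chain genes in each library, in CPM per kb of listed gene length, 1 line per library (norUDCA on the left, chow on the right, n = 6 each). The norUDCA lines start at Lifr levels of 15.5 to 25.9 and the chow lines at 28.8 to 59.2. Every chow line drops from Lifr to Il6ra. The norUDCA lines fall or rise less steeply, the steepest being norUDCA 9, from 25.9 to 19.3, and Osmr lies near 0 in both diets.

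Stat3, which encodes the transcription factor itself, also fell. It had 130.1, 169 and 224 CPM (lowest, median, highest) under norUDCA and 212, 262 and 384 CPM under chow. Of the norUDCA libraries only norUDCA 10 and norUDCA 13, at 222 and 224 CPM, exceeded the lowest chow library, chow 16. Stat3 was 1.57-fold lower under norUDCA (176 ± 39.6 against 277 ± 65.9 CPM, SD, n = 6 each; log2 fold change -0.65 ± 0.17 SE; edgeR adjusted p = 0.0161), and without chow 2, the highest library, it was -0.54 (adjusted p = 0.0297). The end of Stat3 (chromosome 11, 100885098 to 100939540, minus strand) overlaps that of Stat5a on the other strand, and the sources used here do not say whether reads were counted by strand. Stat5a was much the less abundant gene, with at most 363 counts in a library.

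Socs3, the feedback inhibitor, was the most variable gene of the 10 in the norUDCA libraries. Its levels there were 13.5, 55.0 and 192 CPM (lowest, median, highest), against 20.1, 129 and 239.5 CPM under chow. The diets overlapped over nearly the whole range, with norUDCA 10 above 5 of the chow libraries and chow 16 below 5 of the norUDCA libraries. The highest library exceeded the lowest 14.3-fold within the norUDCA diet and 11.9-fold within chow. The coefficient of variation was 86.4% under norUDCA and 65.0% under chow, whereas the medians over all tested genes were 14.1% and 16.7%. The log2 fold change of -0.66 ± 0.60 SE was about the size of its error and did not pass the test (edgeR adjusted p = 0.507).

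Cebpb, which encodes C/EBP-beta, had 140.2, 175 and 251 CPM under norUDCA and 179, 235 and 265 CPM under chow. norUDCA 10 stood above the other 5 norUDCA libraries and chow 16 below the other 5 chow libraries, and these 2 made all of the overlap. The log2 fold change was -0.35 ± 0.13 SE (edgeR adjusted p = 0.0780). It was -0.45 (adjusted p = 0.0146) without norUDCA 10 and -0.41 (adjusted p = 0.0421) without chow 16. The Cebpb gene (chromosome 2, 167688915 to 167690418) overlaps Tmem189 on the other strand, which had at most 188 counts in a library.

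Lbp encodes lipopolysaccharide-binding protein, an acute-phase protein that hands bacterial lipopolysaccharide to CD14. It had 69.3, 88.8 and 182 CPM (lowest, median, highest) under norUDCA and 149, 191 and 376 CPM under chow. Of the norUDCA libraries 5 lay below every chow library, and norUDCA 13 lay among the chow values, above chow 3, chow 16 and chow 17. Lbp was 2.18-fold lower under norUDCA (100.1 ± 41.5 against 219 ± 82.3 CPM, SD, n = 6 each; log2 fold change -1.13 ± 0.25 SE; edgeR adjusted p = 0.00798). Leaving out norUDCA 13 gave -1.37 (adjusted p = 0.000810) and leaving out chow 2 gave -0.90 (adjusted p = 0.0135).

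Steap4, a metalloreductase gene that is induced by inflammatory cytokines, had the lowest estimate of the 10 without passing the test. Its levels were 95.2, 267 and 731 CPM under norUDCA and 211, 967 and 2164 CPM under chow. Every norUDCA library lay below chow 2, chow 3, chow 7 and chow 8, but chow 16 and chow 17 lay among the norUDCA values. The log2 fold change was -1.65 ± 0.55 SE (309 ± 231 against 966 ± 714 CPM, SD, n = 6 each; edgeR adjusted p = 0.0591). The estimate was -2.09 (adjusted p = 0.0221) without norUDCA 10, -1.85 (0.0287) without chow 16, -1.82 (0.0400) without chow 17 and -1.63 (0.0441) with DESeq2, and these are the 4 alternatives under which it passed.

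Il1rn encodes the IL-1 receptor antagonist, a secreted protein that blocks the IL-1 receptor. It had 1.95, 4.15 and 5.78 CPM under norUDCA and 1.31, 8.02 and 14.2 CPM under chow. The chow libraries split, with chow 2, 3, 7 and 8 above every norUDCA library and chow 16 and 17 below every one of them. The log2 fold change was -0.87 ± 0.47 SE (edgeR adjusted p = 0.242).

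**Figure D3:**
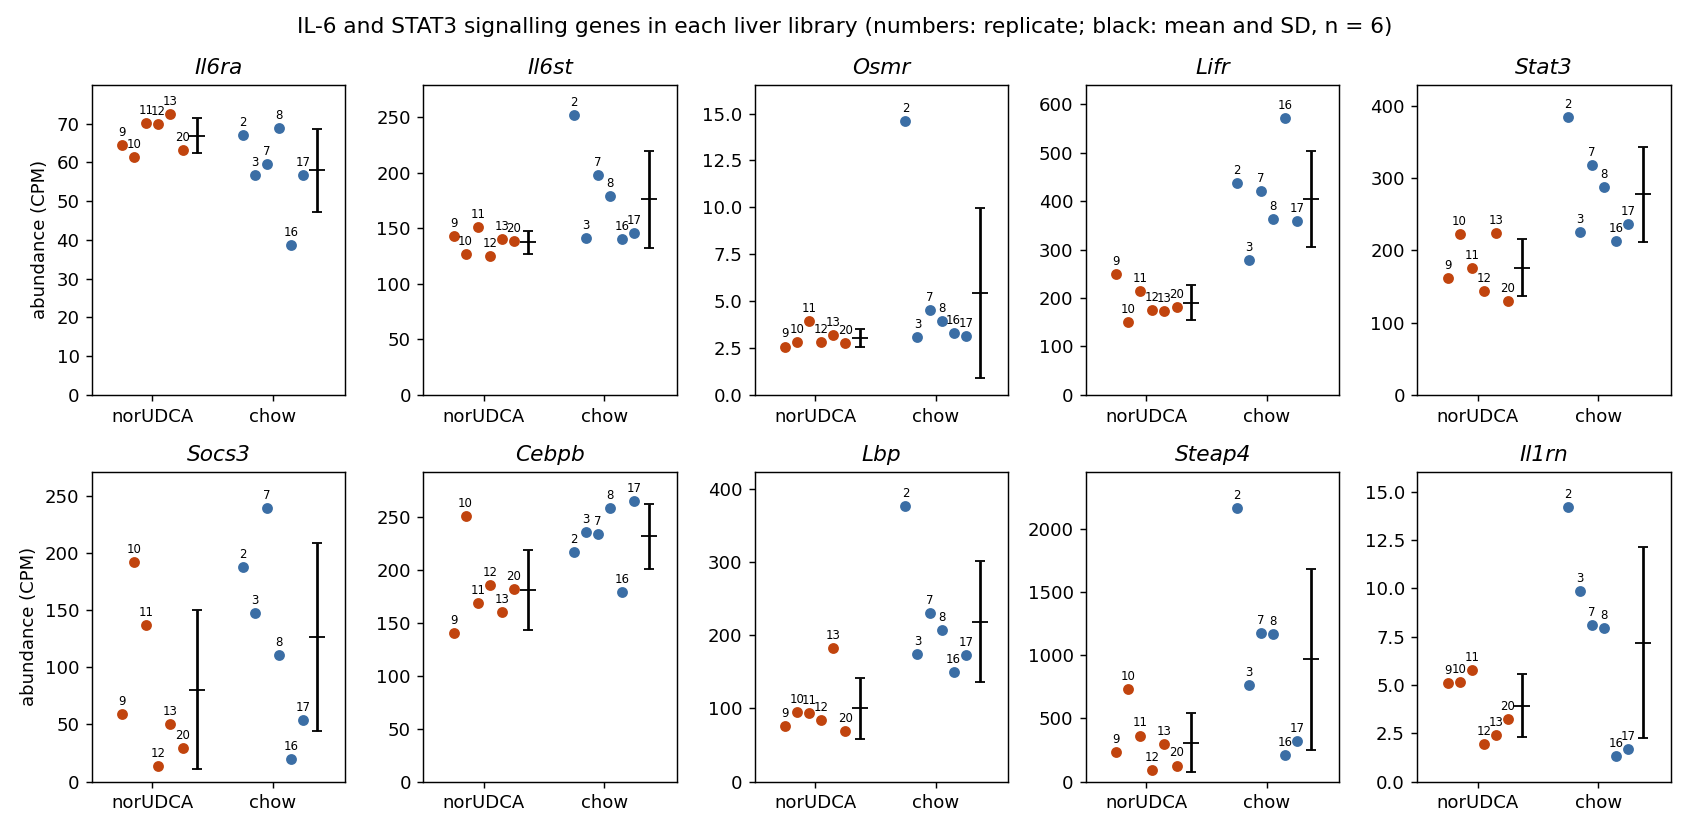
Level of each gene in CPM in the 6 norUDCA and 6 chow libraries, each panel with its own axis from 0, small numbers naming the replicate and black bars giving mean and SD. The diets are apart only for Lifr, chow 2 stands out for Osmr and Lbp, and Socs3, Steap4 and Il1rn spread widely within each diet.

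Across the 10 genes the same libraries recurred at the ends of the range. Chow 2 was the highest chow library for 6 genes, namely Il6st, Osmr, Stat3, Lbp, Steap4 and Il1rn. Chow 16 was the lowest chow library for 8 genes, all but Osmr and Lifr, and it was the highest for Lifr. Among the norUDCA libraries norUDCA 12 was the lowest for 4 genes, and norUDCA 10, 11 and 13 were each the highest for 3.

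Set in order of their mean level per kb, the 10 genes under norUDCA were Cebpb at 120.5, Steap4 at 98.3, Lbp at 39.6, Socs3 at 31.5, Stat3 at 29.2, Il6ra at 20.002, Lifr at 19.7, Il6st at 15.8, Il1rn at 1.59 and Osmr at 0.549 CPM per kb. The mean ± SD ranges of neighbours in this order overlapped except for Stat3 and Il6ra, Il6st and Il1rn, and Il1rn and Osmr. Under chow the order was Steap4 at 308, Cebpb at 154, Lbp at 86.6, Socs3 at 49.6, Stat3 at 45.9, Lifr at 41.9, Il6st at 20.3, Il6ra at 17.3, Il1rn at 2.91 and Osmr at 0.988 CPM per kb. There the neighbours whose ranges did not overlap were Cebpb and Lbp, Lifr and Il6st, and Il6ra and Il1rn.

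Socs3 was used to ask which genes varied from library to library as it did. Likeness was Pearson's r of log2 CPM over the 12 libraries after the mean of each diet had been subtracted. It is a description only, and the part of depth and preparation in it was not tested. The 5 tested genes most like Socs3 were Junb at 0.96, Ccnl1 at 0.95, Map3k8 at 0.94, Mafk at 0.92 and Steap4 at 0.92, and for comparison the 5th and 95th percentiles over 12377 genes were -0.59 and 0.64. Junb encodes a subunit of the AP-1 transcription factor, Mafk a small partner of basic leucine zipper factors and Map3k8 a kinase of inflammatory signalling.

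Steap4 was ranked 5 of these 12377. Its r with Socs3 was 0.96 among the norUDCA libraries alone and 0.90 among the chow libraries alone, and it stayed between 0.89 and 0.94 when any 1 library was left out. Il1rn followed at 0.83 and Stat3 at 0.70. The receptor genes were less alike: Il6st had 0.51, Il6ra 0.46, Osmr 0.39 and Lifr -0.28. For Il6ra the value rested on chow 16, since it was -0.08 without that library. Cebpb had 0.37 with Socs3, and 0.10 without norUDCA 10. Lbp had 0.42 with Socs3 and was more alike to Stat3, at 0.87. For both Lbp and Stat3, norUDCA 13 and chow 2 were the highest libraries of their diets, and r was not computed without them. Cebpb and Lifr varied in opposite directions at -0.77, and chow 16 was the lowest chow library for Cebpb and the highest for Lifr.

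**Figure D4:**
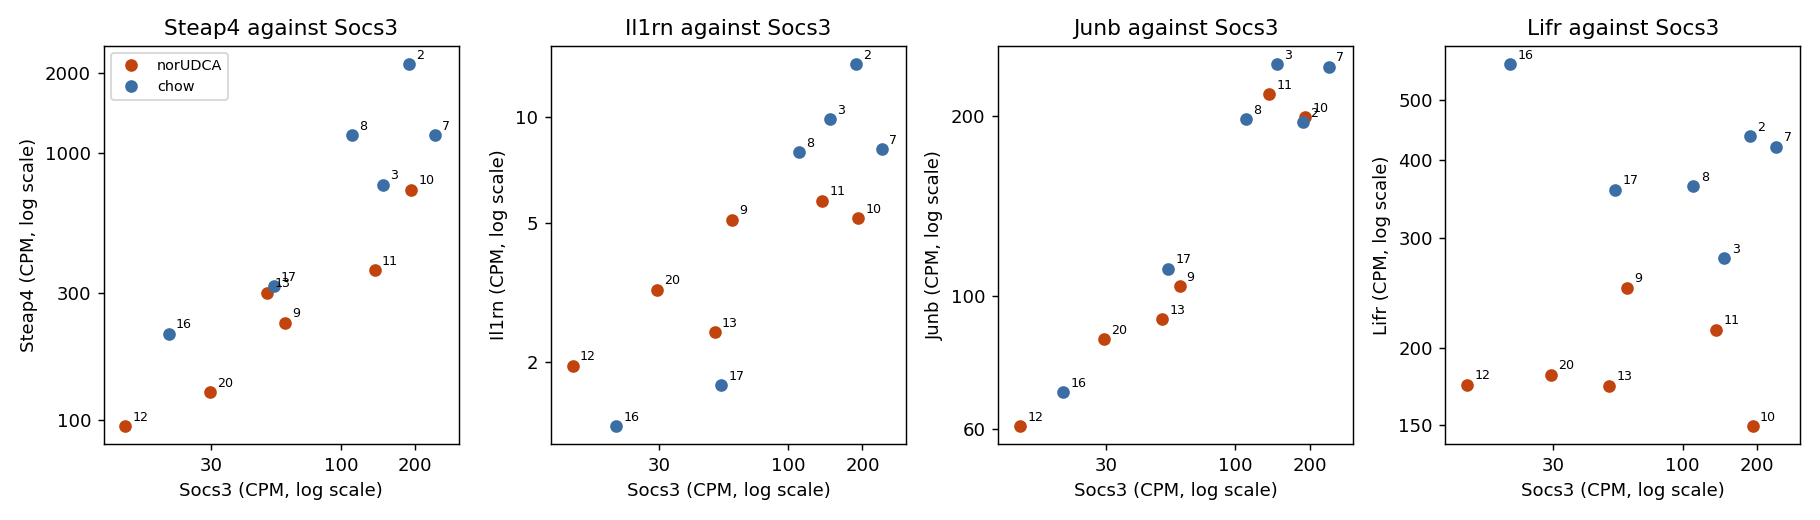
Steap4, Il1rn, Junb and Lifr against Socs3, each in CPM on log axes, 1 point per library with its replicate number (6 norUDCA and 6 chow). Steap4, Il1rn and Junb climb with Socs3 within each diet (r of 0.92, 0.83 and 0.96 over 12 libraries), with norUDCA 12 and chow 16 at the low end, while Lifr does not (r of -0.28).

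Around the 10 genes, 115 further genes of the pathway were examined in 9 lists, of which 97 passed the filter. These lists were drawn up with results of these data known, so their directions are no independent evidence. Of the 97 genes 2 rose and 28 fell under norUDCA, beside 6.73% and 8.62% of all tested genes, and their median log2 fold change was -0.27. The lists are described one by one, and no difference between lists was tested.

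Of the 9 ligand genes only Clcf1 and Ctf1 passed the filter. Il6 itself had no count in any norUDCA library and 1 count over the chow libraries, in chow 7, where 3 counts over a diet amount to 0.0326 CPM under norUDCA and 0.0410 CPM under chow (counting error only). Il6 transcripts were thus not detectable at this depth in 11 of the 12 libraries. Clcf1, which encodes a cytokine acting through CNTFR, LIFR and gp130, had 2.09 to 5.05 CPM under norUDCA and 0.770 to 2.92 CPM under chow. Most norUDCA libraries lay above the highest chow library, and the ranges overlapped. Clcf1 rose 2.04-fold (log2 fold change 1.03 ± 0.29 SE; edgeR adjusted p = 0.0298), a call that was lost in 6 of the 12 analyses that left out 1 library, the adjusted p reaching 0.0645 without chow 7. For Ctf1, the cardiotrophin gene, the log2 fold change was 0.27 ± 0.17 SE (adjusted p = 0.324).

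The 5 other receptor and shedding genes included none that passed the test, with a median log2 fold change of -0.17. ADAM10 and ADAM17 are the proteases that release the IL-6 receptor from the cell surface, and the log2 fold changes of Adam10 and Adam17 were -0.01 and -0.17. Il11ra1 came nearest, at -0.27 (edgeR adjusted p = 0.0601), and passed without norUDCA 12 (adjusted p = 0.0286).

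Of 9 tested genes for Janus kinases and other STATs, 2 fell and none rose, beside 8.62% and 6.73% of all tested genes. With scaling by total counts 1 was higher and 1 lower. Stat5b, which transmits growth hormone signals in liver, averaged 71.9 CPM under norUDCA and 97.1 CPM under chow (log2 fold change -0.43 ± 0.10 SE; edgeR adjusted p = 0.0120, and 0.0706 with scaling by total counts). Stat5a averaged 10.1 CPM under norUDCA and 17.2 CPM under chow (-0.77 ± 0.21 SE; adjusted p = 0.0258). Stat5a overlaps the more abundant Stat3 on the other strand, and whether Stat3 reads entered its counts was not tested. Leaving out norUDCA 9, 11 or 20 or chow 7 ended the call of Stat5a, with an adjusted p of at most 0.0625. Jak1, the main kinase of gp130, was at -0.12 ± 0.07 SE on the log2 scale (adjusted p = 0.294), and Jak2 and Jak3 had -0.20 and -0.44 (adjusted p = 0.121 and 0.103).

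Negative regulators other than Socs3 showed 2 lower genes of 14 tested and none higher, beside 8.62% and 6.73% of all tested genes. The direction of this group depended on scaling, since total counts gave 2 higher and none lower. The number lower was 0 without norUDCA 12 and 3 without chow 16 or chow 17. Ptpn1, a tyrosine phosphatase gene, averaged 21.8 CPM under norUDCA and 31.5 CPM under chow (log2 fold change -0.53 ± 0.15 SE; edgeR adjusted p = 0.0235), and the call was lost with total counts (0.0585), without norUDCA 12 (0.0555) and without chow 7 (0.0520). Socs7 had -0.34 ± 0.11 SE (adjusted p = 0.0472), a call that was lost in 15 of 20 alternatives. Cish and Ptpn2 had lower estimates of -1.13 and -0.63 without passing (adjusted p = 0.0752 and 0.0796), and both passed with DESeq2 and without chow 17, as did Ptpn2 without chow 16. Socs1 was below the filter, with 34 counts over the norUDCA libraries and 81 over the chow libraries.

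Among 12 other C/EBP and partner factors, 1 gene rose and 1 fell, near the 6.73% and 8.62% of all tested genes. Cebpe, best known from granulocyte development, averaged 11.2 CPM under norUDCA and 6.78 CPM under chow (log2 fold change 0.72 ± 0.16 SE; edgeR adjusted p = 0.00811). Cebpg averaged 37.5 CPM under norUDCA and 48.3 CPM under chow (-0.36 ± 0.10 SE; adjusted p = 0.0198, and 0.107 with scaling by total counts). Fos and Rela did not pass (adjusted p = 0.107 and 0.125), although Fos passed without norUDCA 10 (-0.78, adjusted p = 0.0385) or chow 2 (-0.74, adjusted p = 0.0370).

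The plasma protein and other target genes of IL-6 and STAT3 held most of the calls. Of 33 tested, 17 fell and none rose, beside 8.62% of all tested genes that were lower, and the median log2 fold change was -0.89. For 6 of the 33 the diets did not overlap, beside 7.66% of all tested genes. The 16 targets not called included Hamp at 0.05 (edgeR adjusted p = 0.930), Crp at -0.18 (0.383), Mcl1 at -0.10 (0.589) and Myc at 0.18 (0.681). Lcn2, at -1.89 (0.110), was not called either. The number lower was 16 with scaling by total counts and 17 with DESeq2. It was 15 without norUDCA 9, 11, 12 or 20 or chow 2, 7 or 8, and 18 without norUDCA 10 or chow 16.

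Hpx, the gene of the haem carrier hemopexin, had 1701 to 3152 CPM under norUDCA and 3818 to 15870 CPM under chow, with no overlap. Its log2 fold change was -1.77 ± 0.30 SE (edgeR adjusted p = 0.00118). Hp, the gene of the haemoglobin carrier haptoglobin, had 1709 to 3353 CPM under norUDCA and 3566 to 14684 CPM under chow, again without overlap (-1.56 ± 0.30 SE; adjusted p = 0.00337). Itih3, an inter-alpha-trypsin inhibitor heavy chain gene, had -1.26 ± 0.22 SE (adjusted p = 0.00188) and Saa3, a serum amyloid A gene, had -3.13 ± 0.58 SE (adjusted p = 0.00254), both without overlap. In each of these 4 genes chow 2 was the highest library, as it was for Lbp.

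The IL-1 side of the response, which IL1RN opposes, had 3 lower genes of 14 tested and none higher. Among all tested genes, 8.62% were lower and 6.73% higher. Il1r1, the signalling receptor, averaged 83.8 CPM under norUDCA and 232 CPM under chow (log2 fold change -1.47 ± 0.32 SE; edgeR adjusted p = 0.00692). Irak2, an IL-1 receptor-associated kinase gene, had 19.7 to 29.8 CPM under norUDCA and 30.2 to 52.5 CPM under chow, without overlap (-0.78 ± 0.14 SE; adjusted p = 0.00169). Irak3, an inhibitory member of that family, had -1.85 ± 0.50 SE (adjusted p = 0.0230) at 0.669 CPM under norUDCA and 2.43 CPM under chow, and the call was lost with limma-voom and without chow 2, chow 7, norUDCA 12 or norUDCA 20. The gene of the accessory chain, Il1rap, did not pass (-0.24 ± 0.08 SE; adjusted p = 0.0583), although it did with DESeq2 (0.0414) and without chow 2 (0.0339).

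Of 6 tested genes that work with LBP in sensing bacterial products, 2 fell and none rose, beside 8.62% and 6.73% of all tested genes. Cd14, which receives lipopolysaccharide from LBP, averaged 5.95 CPM under norUDCA and 16.8 CPM under chow (log2 fold change -1.49 ± 0.38 SE; edgeR adjusted p = 0.0161). Tlr2, a receptor for bacterial lipoproteins, had 1.11 to 2.54 CPM under norUDCA and 2.73 to 13.5 CPM under chow, without overlap (-1.89 ± 0.41 SE; adjusted p = 0.00646). Tirap and Ticam1, adaptor genes, did not pass (adjusted p = 0.0765 and 0.118), although Tirap did with DESeq2 (0.0486) and without chow 17 (0.0409). In the family of Steap4, Steap3 was at -0.31 ± 0.09 SE on the log2 scale (adjusted p = 0.0315), a call that was lost in 10 of 20 alternatives, and Steap2 had 0.33 ± 0.21 SE (adjusted p = 0.308).

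**Figure D5:**
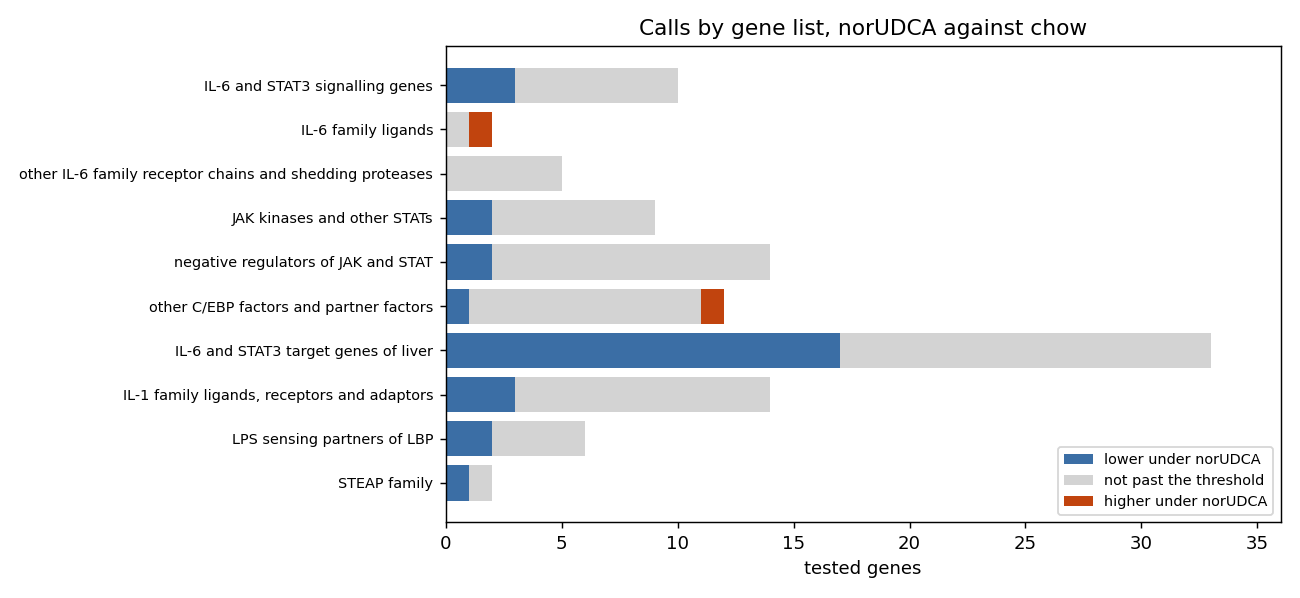
Number of tested genes in each list that were lower, not past the threshold or higher under norUDCA (edgeR, adjusted p under 0.05). The liver target genes hold 17 of the 28 lower pathway genes, and the 2 higher ones are a ligand and a C/EBP factor.

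Markers of other liver cells were examined beside these genes. Of 9 tested Kupffer cell and macrophage markers 5 were lower under norUDCA and none higher, against 8.62% of all tested genes lower. The number lower was 3 with scaling by total counts, 2 without norUDCA 9, 12 or 20 or chow 7, 3 without norUDCA 10 or 11 or chow 8 or 16, and 8 without norUDCA 13. Their summed level was 107 to 255 CPM under norUDCA and 179 to 433 CPM under chow. Chow 2, the highest chow library for Lbp, Osmr and Steap4, had the lowest macrophage sum of the chow libraries, at 179 CPM. norUDCA 13, the highest norUDCA library for Lbp and Stat3, also had the highest macrophage sum of its diet.

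The 7 neutrophil markers summed to 2.51 to 5.66 CPM under norUDCA and to 3.76 to 17.1 CPM under chow. The 3 that could be tested, S100a8, S100a9 and Csf3r, were lower under norUDCA, against 8.62% of all tested genes lower. At such low levels a gene can pass the filter through 1 diet alone, so the 3 are no independent support. With no filter 2 of 7 were lower, and 2 were lower with upper quartile or total count scaling. None was called with limma-voom or when norUDCA 9, 10, 11 or 20 or chow 7, 8, 16 or 17 was left out. Of the 6 hepatocyte markers 3 were lower and none higher, against 8.62% and 6.73% of all tested genes. The log2 fold changes were -0.55 for Apoa1, without overlap, -0.61 for Serpina1c and -0.53 for Tat, which is also among the 33 target genes. Alb had 0.14 (edgeR adjusted p = 0.512) and Ttr 0.00. The count of 3 hepatocyte markers was the same whichever library was left out.

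Of the 5 tested cholangiocyte markers, Sox9 and Spp1 were lower under norUDCA, against 8.62% of all tested genes lower. With limma-voom only 1 was lower. The keratin and adhesion genes Krt19, Krt7 and Epcam, at 0.31, -0.09 and 0.16, did not pass. Cholangiocyte sums of 32.8 to 41.5 CPM under norUDCA and 33.0 to 103 CPM under chow were mostly Spp1, which averaged 28.5 CPM under norUDCA and 53.6 CPM under chow. The 7 lymphocyte markers were too low to test, at 0.895 to 2.91 CPM under norUDCA and 0.790 to 2.73 CPM under chow. None of the 7 endothelial markers passed the test, though 1 was lower without norUDCA 12. Of 7 stellate cell markers 2 were higher, Reln and Col1a1, against 6.73% of all tested genes. None was higher without chow 7 or chow 8, 1 was without norUDCA 9, 10, 11 or 13 or chow 2 or 16, and 4 were without chow 17. Stellate sums were 147 to 210.1 CPM under norUDCA and 108 to 190.4 CPM under chow. No marker found in the table was at 0 in all libraries, and the part of these cells in the differences above was not tested.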

How the data were processed

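Total RNA of frozen liver was sequenced on the Illumina system from NEBNext libraries. The submitters' processing notes name CASAVA, STAR and DESeq2, and the sources used here give neither their versions nor the strand setting or genome build of the gene table. Values used were the authors' deposited raw read counts per gene and the listed gene length in bases, an other kind of value, from which levels per kb were computed. Of its genes 34490 were found in GENCODE M21 (GRCm38), 24919 with the same coordinates, and 7 of the 10 genes described here were among these. The deposited tables of the authors' own comparison, with fold changes and p-values, were not used.

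Libraries were grouped by the diet in their labels, 6 per diet. Counts were tested in R 4.3.3 with edgeR 4.0.16 (glmQLFit and glmQLFTest, no covariate), with TMM scaling, filterByExpr and Benjamini-Hochberg adjustment over the 12378 genes left, called under 0.05. The SE of a log2 fold change was derived from its F statistic. Likeness to Socs3 used log2 CPM with a prior count of 2. The code was tested on simulated data. Ranges and floors cover counting error or library spread only.

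The 10 genes and all lists were chosen with earlier results of these data known. Of each list, up to 4 tested genes with the smallest p and, where 5 or fewer were called, every called gene are named. Genes named beyond this, such as Adam10 and Jak1, were picked with their values known. Alternatives were RLE, upper quartile and total count scaling, TMM without the 50 most abundant genes, no filter on low counts, DESeq2 1.42.0, limma-voom (limma 3.58.1), thinning to the smallest library, and leaving out each library in turn.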

Additional observations from a re-analysis of the deposited data

Results flagged for a closer look

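Within each diet, a library was singled out where its gap to the nearest other library, as a share of the diet's whole range, passed Dixon's 95% critical value for 6 libraries. The 20 sets of 1 gene and 1 diet were examined, and 3 passed. Chance alone passes about 1 in 20 only for independent sets of normally distributed values. CPM was used without logs, and Lbp and Osmr, which both passed in chow 2, varied together (r of 0.71). The number that passed is therefore not compared with chance. Lbp stood apart in norUDCA 13, at 182 CPM where the other norUDCA libraries had 69.3 to 95.3 CPM. It also stood apart in chow 2, at 376 CPM where the next chow library had 231 CPM. Osmr stood apart in chow 2, at 14.6 CPM where the next chow library had 4.52 CPM.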

How the results depend on the processing

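Of 200 values of the 10 genes under the 20 alternatives, 192 kept their direction and side of the threshold, 8 passed the threshold newly and none was lost. Lifr lay between -1.18 and -0.94, Stat3 between -0.72 and -0.50 and Lbp between -1.37 and -0.90. Socs3 (-1.11 to -0.37) and Il1rn (-1.08 to -0.52) were not called under any, nor was Osmr (-0.96 to -0.25). The number of the 10 called ran from 3 to 5 when 1 library was left out, with 5 without norUDCA 10 or chow 16. The number of all genes called was 2999 with scaling by total counts, which raised the median log2 fold change to 0.15 and the share of higher genes among those called to 81.2%. The cause was not tested. Of the other genes named, Cntfr changed sign without chow 2, where it was 0.10 (adjusted p = 0.833). Its values without 1 library ran from -0.36 to 0.10, and none was called. No paired analysis was possible because the diets share no replicate number. Counts of a few per library limit Il6, Socs1 and most other ligand genes, and 6 libraries per diet left Socs3, whose libraries differ over 10-fold, with a wide error.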
